A study of Mus musculus with 6 samples.

Results

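TAF4A peaks listed at genes of membrane trafficking and solute transport numbered 32 of the 1131 peaks in the unified set, at 32 of the 900 genes the peak table lists. The members are the peaks whose gene symbol begins with Rab, Arf, Arl, Vps, Sec, Cop, Tmed, Ap1 to Ap5, Snx, Vamp, Stx, Trapp, Tmem, Atp6, Lamp or Slc, without the mitochondrial Slc25a carriers. By symbol they fell into 4 groups. There were 19 trafficking peaks, 1 lysosome peak (Atp6ap1), 3 peaks at Tmem genes and 9 at Slc carriers. Each gene carried a single peak, all 32 gene IDs were found in the GENCODE M21 annotation, and no other peak lay within 10000 bases of a member. Among all 1131 peaks, 290 (25.6%) had such a neighbour.

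TAF4A is a subunit of TFIID, the general transcription factor that binds core promoters. CUT&RUN cuts and releases the DNA around an antibody-bound protein with a tethered nuclease. It was performed in muscle stem cells (MuSCs) of the wild type genotype and the C57BL/6 strain. The cells had been sorted, cultured in vitro and were activated and proliferating. The series has 6 libraries, 3 made with a TAF4A antibody and 3 with IgG, a control antibody. All 6 came from untreated cells of this 1 genotype, and the study calls its TAF4A libraries biological replicates. Whether they came from separate cultures or animals is not said in the labels, so the tests here measure the spread between these libraries only. Counts with IgG were not analysed here, and the enrichment of a peak over that background is not given.

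Transport vesicles bud from the endoplasmic reticulum (ER), Golgi, endosomes and plasma membrane with the help of coat and adaptor proteins. Small GTPases of the Rab, Arf and Arl families switch each step on and off, and tethers and SNARE proteins bring a vesicle to its target membrane. Solute carriers (Slc) move ions, sugars, amino acids and nucleosides across these membranes, and the V-ATPase acidifies endosomes and lysosomes. Proliferating cells take up more glucose and amino acids through such carriers than resting cells do.

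The DNA below the most counted peak of the Tmem, lysosome and Slc groups is shown first. Sequences were read from the RefSeq copy of the GRCm38 genome, on the strand of the gene, 5′ to 3′. Only the longest stretch outside annotated exons is shown. Capitals mark matches, in either direction, to the motif of NF-Y (CCAATCA, or TGATTGG when read on the other strand), SP1 (GGGCGGG or CCCGCCC), ETS factors (CCGGAAG or CTTCCGG), NRF1 (GCATGCGC or GCGCATGC) or YY1 (AAGATGGCG or CGCCATCTT). The most counted trafficking peak, at Rab11b, was 343 bases wide and is not shown.
Slc3a2 (chr19:8723370-8723474, minus strand): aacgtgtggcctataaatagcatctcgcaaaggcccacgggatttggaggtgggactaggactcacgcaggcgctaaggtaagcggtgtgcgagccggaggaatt
Tmem123 (chr9:7763832-7764040, plus strand): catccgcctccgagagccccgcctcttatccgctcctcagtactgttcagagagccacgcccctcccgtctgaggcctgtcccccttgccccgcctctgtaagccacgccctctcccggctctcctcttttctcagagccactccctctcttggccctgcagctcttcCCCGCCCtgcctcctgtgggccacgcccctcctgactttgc
Atp6ap1 (chrX:74296986-74297096, plus strand): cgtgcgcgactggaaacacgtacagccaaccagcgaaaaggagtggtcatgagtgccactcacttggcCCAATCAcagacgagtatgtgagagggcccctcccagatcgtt

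The next 7 stretches were chosen after the matches and counts had been seen. Arf2 and Ap2a1 had a pair of NF-Y matches each, Rab1A had a pair of SP1 matches beside an NRF1 match, and Slc9a8 had SP1 and ETS matches. The exon-free parts of the Slc2a1 and Vps52 peaks hold 1 of their 2 SP1 matches and 1 of their 2 ETS matches. The Sec61a2 peak was 1 of 2 member peaks at which the libraries differed.
Arf2 (chr11:103966398-103966497, plus strand): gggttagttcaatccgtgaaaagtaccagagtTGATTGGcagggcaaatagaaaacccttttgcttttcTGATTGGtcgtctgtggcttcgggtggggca
Ap2a1 (chr7:44929580-44929773, minus strand): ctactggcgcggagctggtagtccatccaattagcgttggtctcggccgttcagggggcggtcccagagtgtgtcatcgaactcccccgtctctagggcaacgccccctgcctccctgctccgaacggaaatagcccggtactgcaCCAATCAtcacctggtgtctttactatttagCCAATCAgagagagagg
Rab1A (chr11:20201164-20201418, plus strand): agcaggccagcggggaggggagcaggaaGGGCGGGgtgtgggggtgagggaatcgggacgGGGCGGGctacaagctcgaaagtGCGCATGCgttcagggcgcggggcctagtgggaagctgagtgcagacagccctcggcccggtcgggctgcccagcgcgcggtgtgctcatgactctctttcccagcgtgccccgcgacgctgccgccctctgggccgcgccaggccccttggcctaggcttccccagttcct
Slc9a8 (chr2:167421587-167421696, plus strand): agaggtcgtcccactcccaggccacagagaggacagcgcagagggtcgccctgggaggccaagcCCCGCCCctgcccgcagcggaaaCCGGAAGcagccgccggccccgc
Slc2a1 (chr4:119108635-119108710, plus strand): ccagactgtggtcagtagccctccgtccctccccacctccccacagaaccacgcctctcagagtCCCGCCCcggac
Vps52 (chr17:33955699-33955811, plus strand): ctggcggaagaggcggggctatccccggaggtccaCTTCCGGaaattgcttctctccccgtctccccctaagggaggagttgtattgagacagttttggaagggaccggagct
Sec61a2 (chr2:5895433-5895501, minus strand): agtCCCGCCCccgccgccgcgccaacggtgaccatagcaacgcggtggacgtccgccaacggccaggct

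At 3 further peaks the match lay in an annotated exon of the gene, and 29 bases around it are shown. They were also chosen after the matches had been seen, for the NF-Y match at Slc4a7 (the other peak at which libraries differed), the only YY1 match among the members at Rab13, and an NF-Y match at Slc26a6.
Slc4a7 (chr14:14702816-14702844, plus strand): ttccgagctgcTGATTGGctgatacgaat
Rab13 (chr3:90213704-90213732, plus strand): cgtgttgcttCGCCATCTTcggaaggtct
Slc26a6 (chr9:108854016-108854044, plus strand): ccccagaattcTGATTGGtctgatcttgc

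The 3 TAF4A libraries held 47723, 24826 and 32128 counts over all peaks. Their scaled sizes were 1.32, 0.724 and 0.957 times the mean. Counts at single peaks were low. The median member had 25 counts in replicate 1, 13.5 in replicate 2 and 22 in replicate 3, and 19 of 32 members had at least 10 counts in every library, against 735 of 1131 peaks in all. Because counts also follow the width of a peak, peaks are compared with each other per 100 bases. A normalised count below is the count times the mean scaled library size, divided by that of its own library, and is given as mean ± SD over the 3 libraries. Among 7 genes known from muscle stem cells, Myod1, Itga7 and Des had 1 peak each and Pax7, Myf5, Vcam1 and Cd34 had none. A peak is not a measure of expression, so the cell type could not be checked from these data.

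The peak table gives only regions that were called, so the annotation was used to ask which family genes had none. The same symbol patterns matched 898 protein-coding genes, of which 32 (3.56%, 95% Wilson interval 2.54 to 4.99) had a listed peak. Over all 21938 protein-coding genes, 832 had one (3.79%). By position, 28 of the 898 (3.12%) had a peak centred within 1000 bases of the gene start, beside 844 of all (3.85%). Slc31a1 is counted as without a listed peak, though one was centred 180.5 bases from its start. Of the 5 roles in trafficking, small GTPases and their partners had the highest share, with peaks at 11 of 102 genes (10.8%, interval 6.13 to 18.3). Among them were 6 of 69 Rab genes, 2 of 6 Arf genes and 3 of 27 Arl genes. The 11 include Rab42 and Arl6ip5, whose peaks lay 5193 and 1557 bases from the listed start. Some single families of few genes had higher shares that rest on 1 to 3 peaks each, such as Arf (33.3%, 9.68 to 70.0) and Trapp (2 of 15, 13.3%, 3.74 to 37.9). Trafficking genes as a group had peaks at 19 of 288 (6.60%, 4.26 to 10.1), Slc carriers at 9 of 338 (2.66%, 1.41 to 4.98) and Tmem genes at 3 of 242 (1.24%, 0.422 to 3.58). These shares are descriptions of 1 peak set and carry no test.

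Several sets of trafficking machinery had no listed peak. None was listed at the 8 COPI coat genes (Cop), the 11 Tmed cargo receptor genes, the 7 Vamp and 22 Stx SNARE genes, the 23 V-ATPase subunit genes (Atp6v) or the 4 Lamp genes of the lysosomal membrane. Among carriers, none was listed at the 11 Slc38a, 14 Slc16a or 24 Slc39a and Slc30a genes. The sets are small, and the upper limits of their Wilson intervals, 13.8% to 49.0%, all lie above the 3.79% of all genes, so these zeros do not set them apart from the background. Having no listed peak says that none was called at this depth, since counts outside the called regions were not analysed here. The plot of family shares sets these groups side by side.

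**Figure D1:**
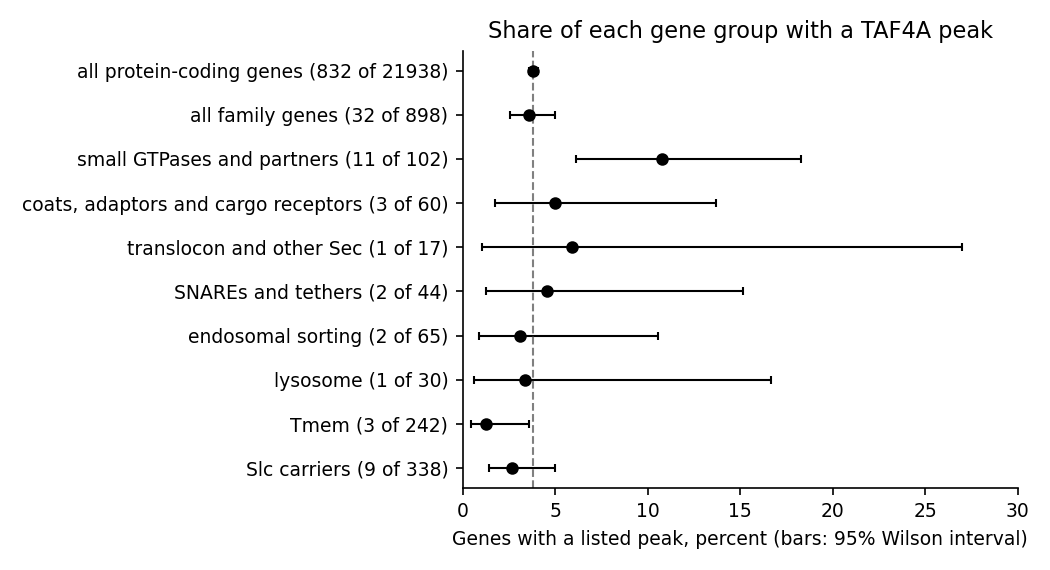
Share of annotated protein-coding genes with a listed TAF4A peak, in percent, with 95% Wilson intervals as bars and the share over all 21938 protein-coding genes as the dashed line. Among the 5 roles in trafficking, the lysosome, Tmem and Slc genes shown, small GTPases and partners lie above the line at 10.8% and Tmem genes below it at 1.24%, and the other intervals drawn include it.

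Genes of the same pathways outside the symbol rule were also counted. Of 256 such annotated genes, 6 had a listed peak (2.34%). Clathrin genes had 3 of 17, at Cltc (clathrin heavy chain), Dnm2 (dynamin, which pinches vesicles off) and Hip1 (a clathrin-binding protein). Of 13 genes of ER exit Lman2 had a peak, of 37 genes of the Golgi and of fusion Napa had one, and pumps, ABC transporters and channels had Atp1b3 among 121. None of 34 lysosome genes, 18 ESCRT genes, 8 genes of the Rab cycle or 8 exocyst genes had a peak. The Hip1 peak was the only one of the 6 at which the libraries differed, with 48, 11 and 19 counts (adjusted p = 0.0426, exact multinomial test).

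Member peaks were narrow and lay close to gene starts. Their median width was 166 bases (95% interval of the median 123 to 192), beside 160 bases for the other 1099 peaks. The median distance from the peak centre to the start of the listed gene was 120 bases (51 to 562), beside 130 bases for the 977 other peaks with a gene. At 29 of 32 members (90.6%, 75.8 to 96.8) the centre lay within 1000 bases of an annotated transcript start, beside 865 of the 977 other peaks with a gene (88.5%, 86.4 to 90.4), so the intervals overlapped. The centre lay outside the listed gene at 21 members, in an exon but outside the coding sequence at 7 and in an intron at 4. No member was centred in coding sequence.

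The side of the gene start on which a peak lay depended in part on the start used. Trafficking peaks had a median position of -98 bases, and 5 of 19 were centred downstream of the listed start (26.3%, 11.8 to 48.8). All 3 Tmem peaks and the Atp6ap1 peak were upstream. The Slc carriers had a median position of 140.5 bases, and 6 of 9 were centred downstream of the listed start (66.7%, 35.4 to 87.9). The intervals overlapped, and 34.1% of the 977 other peaks with a gene were downstream. By the closest annotated start of the same gene, 3 of 9 Slc and 4 of 19 trafficking peaks were downstream, with median positions of -20 and -98 bases. At 3 of these 6 (Slc26a6, Slc4a7 and Slc7a5) and at Snx1 another annotated start of the same gene was over 100 bases closer. The Slc26a6 peak lay 775 bases inside the gene as listed, but 15 bases from its closest own start. The Slc4a7 peak was 576 bases from the listed start and 169.5 bases upstream of another.

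At 3 members the closest start belonged to another gene. The peak listed at Rab42 lay 5193 bases upstream of that gene and 45 bases from the start of Snhg12, a non-coding RNA that hosts small nucleolar RNAs. The peak listed at Ap4m1 lay 867 bases upstream of that gene and 105.5 bases inside Mcm7, a subunit of the replicative helicase. The peak listed at Tmem259 lay 695 bases upstream of that gene and 481 bases from Gm26243, a small nuclear RNA. At 5 members a start of another protein-coding gene was within 1000 bases. These were Ap4m1 with Mcm7, Rab13 with Rps27, Vps52 with Rps18, Trappc1 with Cntrob and Tmem256 with Nlgn2. Which of the genes such a peak serves was not tested. The plot of positions shows the listed and the closest own starts.

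**Figure D2:**
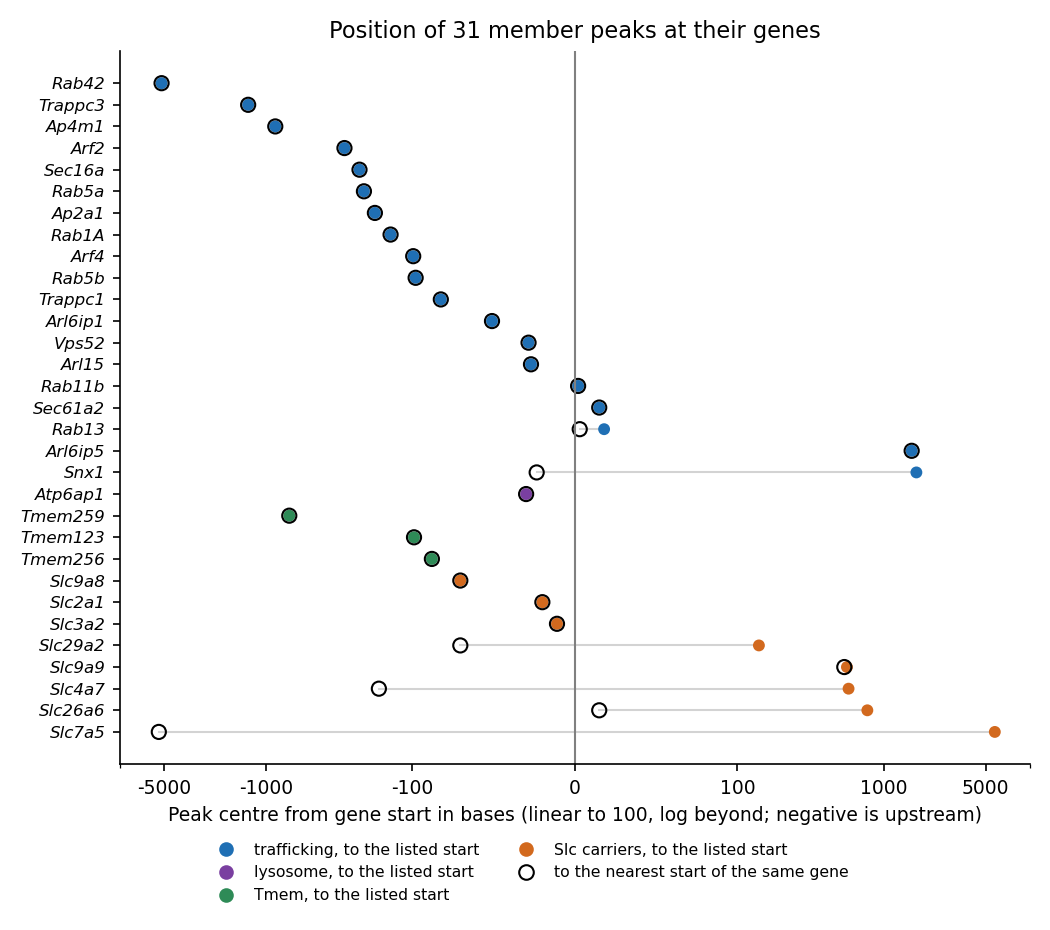
Position of 31 of the 32 peak centres relative to the gene start in bases, negative upstream, on an axis that is linear to 100 bases and logarithmic beyond. Filled points use the listed start and open circles the closest annotated start of the same gene. Most trafficking peaks lie upstream, and the long grey lines mark Snx1, Slc29a2, Slc4a7, Slc26a6 and Slc7a5, where the choice of start matters.

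Small GTPases were the largest set, with 11 peaks whose mean normalised counts ran from 7.77 to 59.5. The Rab11b peak (chr17:33760357-33760699, 343 bases wide, centred 2 bases from the start) had 76, 36 and 68 counts in replicates 1, 2 and 3, or 59.5 ± 10.8 normalised counts. Rab11b controls recycling endosomes. It was the widest and most counted trafficking peak and ranked 140 of 1131 peaks by mean. The Arl15 peak (chr13:113794353-113794603, 251 bases, 27 bases upstream) had 51, 18 and 32 counts, or 32.3 ± 6.97 normalised. Arl15 is an Arf-like GTPase. The Rab1A peak (chr11:20201164-20201418, 255 bases, 141 bases upstream) had 39, 18 and 40 counts, or 32.1 ± 8.74 normalised. Rab1A acts between ER and Golgi. No difference between libraries passed the test at these 3 peaks, with adjusted p between 0.292 and 0.443 in the exact multinomial test. Per 100 bases, Rab11b had 17.3 normalised counts, Arl15 12.9 and Rab1A 12.6, and the ranges of their libraries overlapped.

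Rab5b and Rab5a, isoforms of Rab5, which drives fusion of early endosomes, each had a peak. Rab5b had 27, 14 and 16 counts in a peak of 105 bases centred 98 bases upstream. Rab5a had 18, 8 and 23 counts in a peak of 126 bases centred 215 bases upstream. Their mean normalised counts were 18.8 ± 1.92 and 16.2 ± 6.87 per peak, or 17.9 ± 1.83 and 12.9 ± 5.45 per 100 bases, so they differed by less than the spread of Rab5a between libraries. Rab13, which acts in delivery to the cell surface, had 36, 20 and 21 counts and was centred 18 bases from its listed start. The Golgi GTPases Arf4 (25, 7 and 20 counts) and Arf2 (16, 7 and 12 counts) lay 100 and 292 bases upstream of their genes.

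The partners of Arl6 stood at the middle and the bottom of the range. Arl6ip1, which shapes ER membranes, had 21, 13 and 31 counts, highest in replicate 3. Arl6ip5, an ER protein of the PRA1 family, had 12, 5 and 7 counts in a peak (chr6:97212196-97212297) 1557 bases inside the gene, in an intron. With 7.77 ± 1.17 normalised counts it had the fewest counts of the trafficking peaks. The peak listed at Rab42 (chr4:132308485-132308671, 187 bases) had 31, 24 and 24 counts, or 27.2 ± 5.18 normalised.

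Coats and adaptors had 3 peaks. The Sec16a peak (chr2:26445352-26445540, 189 bases, 230 bases upstream) had 36, 28 and 39 counts, or 35.6 ± 7.25 normalised. Sec16a organises the sites where COPII vesicles leave the ER, and it was the only 1 of 12 COPII genes (Sec13, Sec16, Sec23, Sec24 and Sec31) with a peak. The Ap2a1 peak (chr7:44929580-44929773, 194 bases, 180 bases upstream) had 35, 25 and 34 counts, or 32.2 ± 4.93 normalised. Ap2a1 is a large subunit of the AP-2 adaptor of clathrin-mediated uptake. The peak listed at Ap4m1 (chr5:138171075-138171196, 122 bases), a subunit of the AP-4 adaptor, had 16, 8 and 13 counts, or 12.3 ± 1.27 normalised. Per 100 bases these were 18.8 ± 3.83, 16.6 ± 2.54 and 10.0 ± 1.04 normalised counts. Sec16a and Ap2a1 overlapped, and every library of both lay above every library of Ap4m1.

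Tethers and sorting factors had 2 peaks each. TRAPP subunits tether vesicles at the Golgi. The Trappc3 peak (chr4:126260871-126261123, 253 bases, 1328 bases upstream in intergenic sequence) had 60, 24 and 41 counts, or 40.5 ± 6.50 normalised. The Trappc1 peak (chr11:69323836-69323959, 124 bases, 83 bases upstream) had 8, 4 and 16 counts, or 9.44 ± 6.31 normalised. Vps52 belongs to a complex that returns vesicles from endosomes to the Golgi, and its peak (chr17:33955699-33955868, 170 bases, 29 bases upstream) had 47, 22 and 37 counts, or 34.9 ± 4.19 normalised. Snx1, a sorting nexin that works with retromer, had 12, 16 and 14 counts in a peak (chr9:66124860-66124959, 100 bases) that lay 1678 bases inside the gene as listed and 23.5 bases from another of its starts. Its normalised count was 15.3 ± 6.53. Per 100 bases of peak, Vps52 had the highest value of the trafficking group, 20.5 normalised counts, and Trappc1 the lowest, 7.61.

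The Sec61a2 peak (chr2:5895333-5895501, 169 bases, 15 bases inside the gene) had 9, 9 and 28 counts in replicates 1, 2 and 3. Sec61a2 is an isoform of the channel through which proteins enter the ER. Normalised, this was 6.82, 12.4 and 29.3, a mean of 16.2 ± 11.7. The spread between the 3 libraries was beyond counting noise, with replicate 3 the highest (adjusted p = 0.00210, exact multinomial test over all 1131 peaks with Benjamini-Hochberg adjustment).

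The lysosome group consisted of Atp6ap1, an accessory subunit of the V-ATPase. Its peak (chrX:74296986-74297148, 163 bases, 30 bases upstream) had 14, 6 and 12 counts, or 10.5 ± 2.13 normalised. It ranked 986 of 1131 peaks by mean and had the lowest value per 100 bases of any member, 6.43 normalised counts. As a single peak it allows no comparison of the lysosome group with the others.

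The Tmem peaks lay within a narrow range. The Tmem123 peak (chr9:7763832-7764052, 221 bases, 99 bases upstream) had 30, 18 and 29 counts, or 25.97 ± 3.90 normalised. The Tmem259 peak (chr10:79984946-79985104, 159 bases) had 29, 21 and 18 counts, or 23.3 ± 5.22. The Tmem256 peak (chr11:69838365-69838487, 123 bases, 88 bases upstream) had 25, 11 and 15 counts, or 16.6 ± 2.05. Tmem123 encodes porimin and Tmem259 encodes membralin, an ER protein. Per 100 bases the 3 peaks had 11.8 ± 1.76, 14.6 ± 3.28 and 13.5 ± 1.66 normalised counts in the same order, and their libraries overlapped.

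The Slc carriers held both the most and the least counted members. The Slc3a2 peak (chr19:8723234-8723526, 293 bases, 11 bases upstream) had 128, 90 and 107 counts, or 111 ± 13.7 normalised. Slc3a2 is the heavy chain that carries amino acid transporters to the cell surface. It ranked 30 among 1131 peaks, and its lowest library, 97.0 normalised counts, exceeded the highest library of every other member. With 37.9 normalised counts per 100 bases it also exceeded every other member per base, of which Vps52 came closest with 20.5. Slc7a5, the light chain that pairs with Slc3a2 to import large neutral amino acids, had 21, 11 and 12 counts, or 14.6 ± 1.78 normalised and 10.5 ± 1.28 per 100 bases. That peak (chr8:121901856-121901994, 139 bases) was not at the gene start but in an intron, 5769 bases inside the gene and 5423 bases from the closest own start.

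A pair of sodium/proton exchangers of internal membranes had peaks of unequal size. Slc9a9, an exchanger of endosomes, had 52, 25 and 33 counts (chr9:94670337-94670605, 269 bases, 562 bases inside the gene), or 36.1 ± 2.84 normalised. Slc9a8, an exchanger of the Golgi, had 11, 7 and 16 counts (chr2:167421587-167421696, 110 bases, 71 bases upstream), or 11.6 ± 4.50 normalised. Per 100 bases they had 13.4 ± 1.06 and 10.5 ± 4.09 normalised counts, and Slc9a8 lay below Slc9a9 in replicates 1 and 2 only.

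The remaining carriers were low. Slc29a2, a nucleoside transporter, had 7, 12 and 12 counts. Slc26a6, an anion exchanger, had 19, 6 and 9 counts. Slc2a1, the glucose transporter GLUT1, had 3, 6 and 12 counts and the lowest mean of all members, 7.70 ± 5.16 normalised. A count of 3 has a counting error of 57.7%, so the level of Slc2a1 is known only roughly.

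Slc4a7, a sodium bicarbonate cotransporter, had 3, 6 and 23 counts in a peak of 138 bases (chr14:14702787-14702924). Normalised, this was 2.27, 8.29 and 24.03, a mean of 11.5 ± 11.2. As at Sec61a2, the spread between libraries was beyond counting noise and replicate 3 was the highest (adjusted p = 0.000109, exact multinomial test). At both peaks the difference between replicates 2 and 3 alone, with replicate 1 left out, did not pass the test. Whether either peak entered the unified set through replicate 3 alone was not examined, and the test does not allow for such selection.

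**Figure D3:**
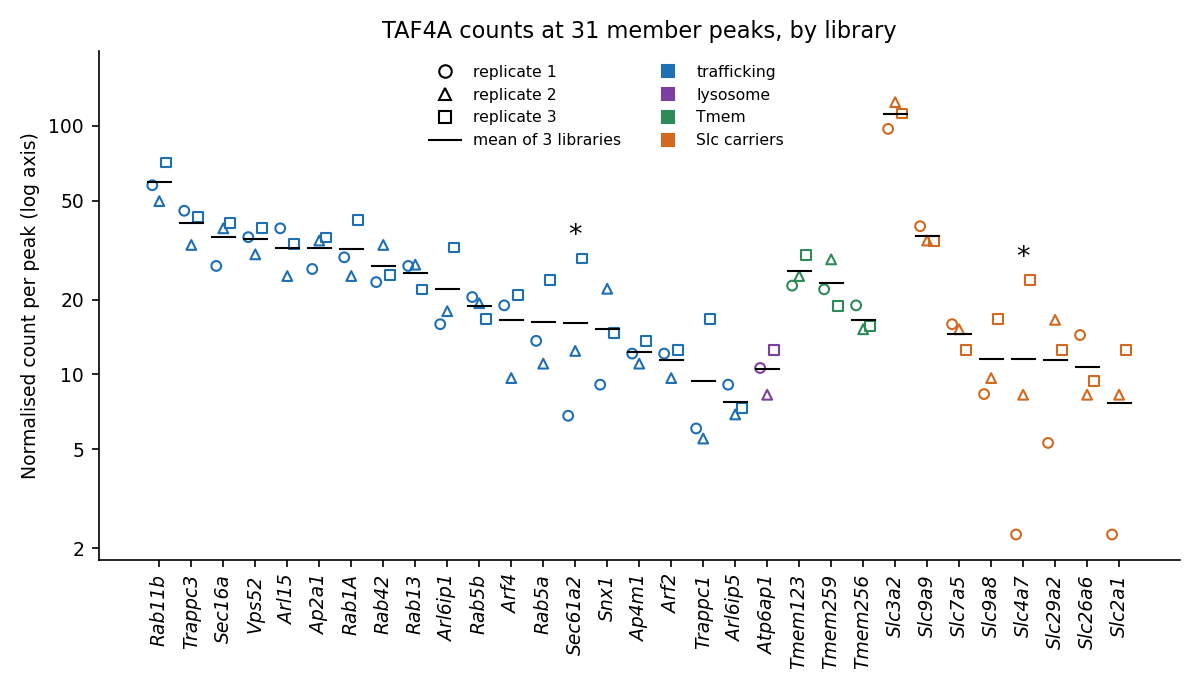
Normalised counts at 31 of the 32 peaks on a log axis, with circles, triangles and squares for replicates 1, 2 and 3, bars for their mean and colours for the groups. Slc3a2 lies above all other members in every library, and asterisks mark Sec61a2 and Slc4a7, where the spread between libraries is beyond counting noise and replicate 3 is the highest.

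It was then asked at how many members the spread between libraries exceeded counting noise. The test was fitted on all 1131 peaks, and no member was removed by a filter after peak calling. The set itself unites peaks called in single libraries, so a region can have entered through the library in which it is high. The test does not allow for that selection. It called 2 of 32 members (6.25%, Sec61a2 and Slc4a7), whereas 205 of all peaks were called (18.1%). Both were highest in replicate 3, and over all peaks 48 were called and highest in that library (4.24%). The chi-square test called the same 2 members. Leaving out replicate 1 called no member and 28 of all 1131 peaks, leaving out replicate 3 none and 88, and leaving out replicate 2 called 3 and 172, the additional member being Slc2a1. The count depended on the scaling. With scaling by uniquely mapped reads 15 members and 557 of all 1131 peaks were called, and with no scaling 11 members and 504 of all peaks. Both called peaks had fewer than 10 counts in 2 libraries and dropped out under a minimum of 10 counts, after which no member and 143 of the 735 peaks left were called.

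Across members, 17 of 32 were highest in replicate 3 (53.1%), beside 382 of 1131 peaks (33.8%). In the trafficking group these were 12 of 19, and in the Slc group 3 of 9. Replicate 3 was sequenced with longer reads than the other TAF4A libraries, and the paper's number of called peaks is highest for it. A region called there alone would tend to be highest there. The part of read length and of peak calling in these differences was not tested. The GC content of the peak moved with the ratio of replicate 3 to replicate 1. Among members with over 65% GC, 7 of 7 were higher in replicate 3 than in replicate 1, with a median log2 ratio of 0.92, beside 14 of 25 members with less GC and a median of 0.09. The same split over all peaks was weaker, with 167 of 266 higher (median 0.19) beside 394 of 865 (median -0.06). These 7 were Slc9a8, Slc2a1, Rab1A, Sec61a2, Trappc1, Snx1 and Tmem123. Over the 32 members the log2 ratio and GC content correlated with r = 0.588 and rho = 0.682, and over all 1131 peaks with r = 0.153 and rho = 0.223. For replicate 3 over replicate 2 the members gave r = 0.444 and rho = 0.538, beside 0.108 and 0.137 over all peaks. For replicate 2 over replicate 1 they gave r = 0.351 and rho = 0.255, beside 0.064 and 0.114 over all peaks. The points share libraries, and the limit of 65% was set after the data had been seen. The plot of GC content shows these values.

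**Figure D4:**
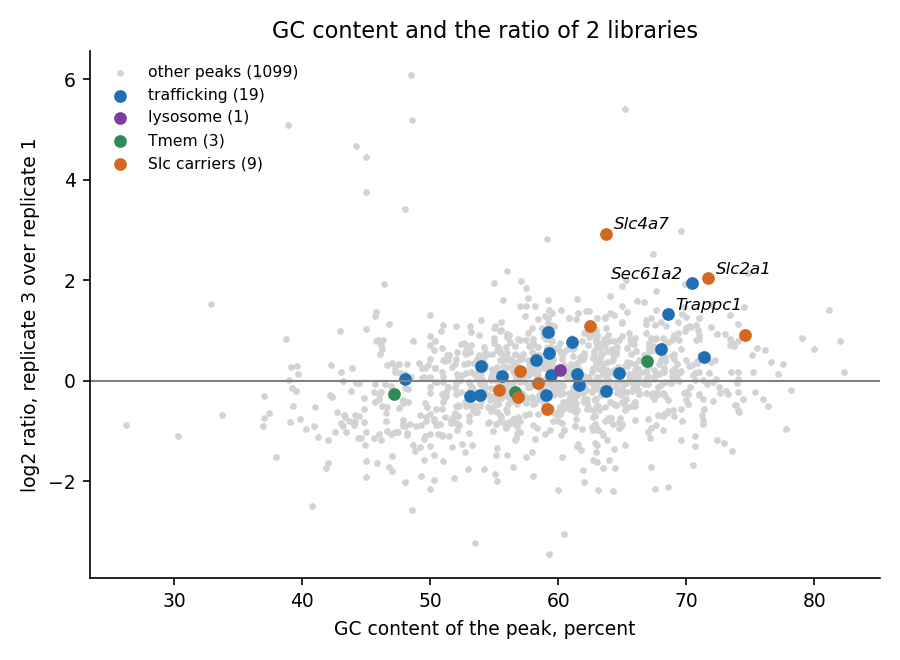
Log2 ratio of normalised counts, replicate 3 over replicate 1 with a pseudocount of 1, against GC content of the peak in percent, for the members by group and the other 1099 peaks in grey. Sec61a2, Slc2a1, Trappc1 and Slc4a7 have the highest ratios among the members.

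The median level of the members did not differ from that of other peaks in 1 direction. Within each library, the median log2 normalised count of the members was set against that of the other 1099 peaks, with a pseudocount of 1. The difference was -0.05, -0.15 and 0.20 in the libraries in that order, which averages to 0.00045 ± 0.18 (SD over 3 libraries). Its sign differed between libraries, and it turned to -0.10 without replicate 3. The exact two-sided sign-flip permutation test gave p = 1, where the smallest p that 3 libraries allow is 0.25. Of 32 members, 4 lay in the top 283 peaks by mean, among them Slc3a2, Rab11b and Trappc3. This was 12.5% of the members (4.97 to 28.1), beside 26.9% of the 977 other peaks with a gene (24.2 to 29.8). The median member lay at percentile 43.9 of all peaks (95% interval of the median 21.8 to 69.8), beside 52.6 (49.7 to 55.6) for those other peaks.

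The Slc carriers had fewer counts per peak than the trafficking peaks in each library, but not per base. The difference of medians was -0.48, -0.51 and -0.56 on the log2 scale, a mean of -0.52 ± 0.04, with p = 0.25 in the same exact permutation test, the smallest it can give. Width moved with this difference. The Slc peaks had a median width of 138 bases (112 to 269) and the trafficking peaks 179 bases (122 to 194). Per base of peak the differences were -0.11, 0.13 and -0.35, a mean of -0.11 ± 0.24 (exact permutation p = 0.75), with no common sign. When each library had to hold 10 counts or more at a peak, where 4 of 9 Slc and 12 of 19 trafficking peaks were left, the difference in counts turned to 0.39. The Tmem peaks differed from the trafficking peaks by 0.10, 0.16 and -0.40, a mean of -0.05 ± 0.31 (exact permutation p = 1), by 0.13 without replicate 3, and by -0.45 where each library had to hold 10 counts (exact permutation p = 0.25).

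Counts rose with peak width among the members as over all peaks. Log2 normalised count and log2 width correlated across members with r of 0.765, 0.740 and 0.870 in replicates 1, 2 and 3, beside 0.832, 0.782 and 0.816 over all peaks. Between libraries, log2 counts of the members correlated with r of 0.835 (replicates 1 and 2), 0.721 (1 and 3) and 0.821 (2 and 3). These are correlations across peaks, which share libraries and are not replicates. The median coefficient of variation between libraries was 19.7% for members and 28.7% for all peaks. The plot of width and count shows Slc3a2 above and Atp6ap1 below most peaks of their width.

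**Figure D5:**
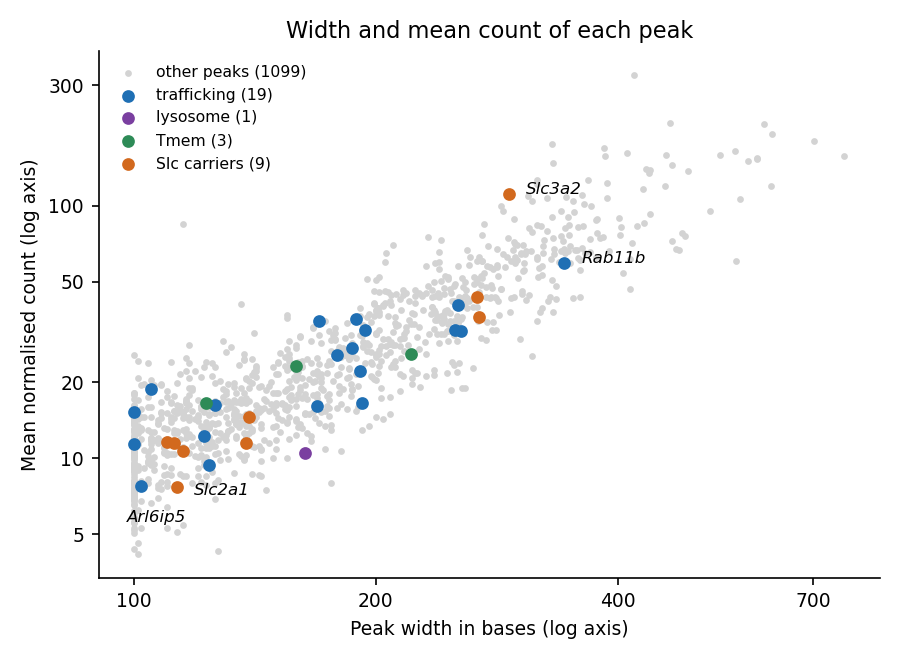
Mean normalised count over 3 libraries against peak width in bases, both on log axes, for the members by group and the other 1099 peaks in grey. Slc3a2 reaches 111 normalised counts at 293 bases, Rab11b 59.5 at 343 bases, and Arl6ip5 and Slc2a1 are the least counted members.

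Lastly, all 32 member peaks were searched for motifs, each read on both strands over the whole peak. The NF-Y motif was found in 8 of 32 member peaks (25%, 13.3 to 42.1), beside 198 of 1131 peaks (17.5%). They were Ap2a1, Arf2, Arl6ip1, Rab11b, Slc26a6, Slc4a7, Tmem256 and Atp6ap1, so every group held at least 1. The SP1 motif was found in 13 members (40.6%, 25.5 to 57.7), beside 406 of 1131 peaks (35.9%). Both were found at Slc4a7 and Atp6ap1, and neither at 13 members, Slc3a2 among them. Promoters of all 21938 protein-coding genes, taken from 200 bases before to 50 bases after the start, held the NF-Y motif in 8.54% and the SP1 motif in 30.4%. These windows differ from the peaks in width and place. In the same windows, NF-Y was found at 21.9% of the 32 member genes and 20.4% of the 800 other protein-coding genes with a listed peak. For SP1 these shares were 43.8% and 46.9%.

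Matches lay mostly upstream of the closest start of the gene. Of 10 NF-Y matches, 9 were upstream, with a median position of -94.5, and of 15 SP1 matches 13 were upstream, with a median of -58. The paired NF-Y matches were 37 bases apart at Arf2 and 31 bases apart at Ap2a1, centre to centre. The paired SP1 matches were 32 bases apart at Rab1A and 25 at Slc2a1, and the paired ETS matches of Vps52 were 82 bases apart. ETS was also found at Slc9a8, NRF1 (GCATGCGC) at Rab1A and Trappc1, YY1 at Rab13 and the E-box (CACGTG) at Rab5a. Over all 1131 peaks the shares were 8.84% for ETS, 2.92% for NRF1, 0.53% for YY1 and 5.48% for the E-box, and in all promoters 10.2%, 3.56%, 1.60% and 6.91% in the same order.

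Motifs known from lysosome and stress response genes were not found in the member peaks. These were the CLEAR core (TCACGTGA, which contains the E-box), the CRE (TGACGTCA), the UPRE (TGACGTG) and the ER stress element (CCAAT, then 9 bases, then CCACG). In all 1131 peaks they were found in 12, 29, 31 and 3. No match says only that these letters are not in the peak, and a match is not a measured binding site.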

How the data were processed

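CUT&RUN reads were trimmed with Trimmomatic 0.39 and aligned to mm10 with STAR 2.7.9a, per the submitters' processing notes, and duplicates were removed with Picard. Peaks were called by the authors with MACS at a false discovery rate of 0.05 and unified. The deposited values are featureCounts read counts per peak and TAF4A library. Although the study's methods name a DESeq2 step, the values hold no fractions and give libraries of unequal scaled size, and they were treated as raw counts. Distances to gene starts are as deposited.

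Groups and replicate numbers came from the sample titles. Counts were scaled with TMM (edgeR 4.0.16, R 4.3.3). An exact multinomial test compared the 3 counts of each peak with the scaled sizes, with Benjamini-Hochberg adjustment over 1131 peaks and a threshold of 0.05. On simulated data, 91% of 200 peaks changed 3-fold in 1 library were recovered of 1131, with 5 false calls, and 0 calls with no change. The simulated counts held counting noise only, so the few false calls follow from that setting. Between the real libraries, the common coefficient of variation beyond counting noise was 0.286 in edgeR. The 91% covers peaks of all levels and was not computed for the members. Group differences were tested by exact sign-flip permutation over libraries. Intervals of medians are order-statistic intervals, those of shares Wilson intervals, and both cover counting error or spread over peaks only. Genes were annotated with GENCODE M21 on GRCm38, of which mm10 is another name, with Python 3.11.15 and scipy 1.17.1. Exons of any transcript were left out of printed stretches, except the short ones around 3 exonic matches. Alternatives included DESeq2 1.42.0 size factors.

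The members, groups, gene lists and motifs were chosen with earlier results of these data known. Every member could be named. Full values were given for the top 3 peaks of each trafficking role and of the lysosome group, the top 5 of the Tmem and Slc groups, every member called, and every member over 1000 bases from its listed start. The other members are given by their counts. The values of 1 Slc carrier are not reported here singly, though it is counted in its group. Counts of IgG libraries were not analysed here.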

Additional observations from a re-analysis of the deposited data

How the results depend on the processing

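The difference between members and other peaks, 0.00045 on the log2 scale, had no stable sign. It was -0.091 per base of peak, -0.013 with a minimum of 10 counts per library and -0.071 among promoter peaks, and ran from -0.10 to 0.074 as each replicate was left out. Slc carriers minus trafficking turned from -0.52 to 0.39 with that minimum and ran from -0.53 to -0.50 as each replicate was left out. Tmem minus trafficking turned from -0.05 to 0.046 per base, was -0.45 with the same minimum and ran from -0.15 to 0.13 as each replicate was left out. With 3 libraries none of these could reach a p under 0.25, so their p-values say nothing about stability.

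The count of members at which libraries differed was 2. It was 11 without scaling, 15 with uniquely mapped reads and 0 with the minimum of 10 counts, and ran from 0 to 3 as each replicate was left out. All peaks called numbered 504 without scaling and 557 with uniquely mapped reads, against 205. Shorter motifs raised the share of members with an NF-Y match from 25% to 53.1% (CCAAT) and with an SP1 match from 40.6% to 75% (GGCGG), beside 45.2% and 67.2% of all peaks. The share of family genes with a peak fell from 3.56% to 2.12% with the same minimum. Of 97 alternatives in all, 82 kept the direction of a difference, kept a count within 1.5 times, or left a median or share within its 95% interval (the range, for groups under 6 peaks). Those that kept 1 peak per gene could not change a value, since each gene carried a single peak. Those for the lysosome group rest on 1 peak. The 82 is therefore not a measure of stability. Leaving out the 3 members closer to another gene's start, chosen after seeing the data, gave 0.0045 for members and -0.59 for Slc carriers and left 2 members called.

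No paired analysis was possible because the counts used here are those of the TAF4A libraries, a single group, and no groups of libraries were compared. The difference between lysosome and trafficking peaks was not run, since the lysosome group has 1 peak, and neither was that of Tmem peaks closest to their own gene, of which 2 are left. Depth limits the low members most, since a count of 3 has a counting error of 57.7%.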
